A study of Mus musculus with 29 samples.

Results

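The Slc25 genes encode mitochondrial carriers, small membrane proteins that move metabolites, nucleotides, cofactors and ions across the inner mitochondrial membrane. In the liver they link the citric acid cycle, the respiratory chain, fatty acid synthesis, amino acid breakdown and heme synthesis to the cytosol. A few proteins of the family sit elsewhere, such as Slc25a17 in the peroxisome and Slc25a46 in the outer mitochondrial membrane. The genes described here were chosen by name: every gene whose name is Slc25a followed by a number, without Slc25a13, Slc25a15 and Slc25a20. The rule found 35 genes among the 12992 genes of the table, out of 38 with such a name before the 3 were left out. It does not take in relatives of the family under other names, such as the uncoupling protein Ucp2 and the Mtch proteins.

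Liver RNA was sequenced from 29 male C57BL/6 mice aged 13 to 14 weeks, 1 library per mouse, killed after an overnight fast and 4 h of refeeding. The whole-body cohort held 5 Maf1-/- mice, which lack the RNA polymerase III repressor Maf1 in every cell, and 7 Ctrl mice, all on chow. In both hepatocyte cohorts every mouse carried floxed Maf1 alleles. Maf1hep-/- mice also carried 1 copy of Alb-Cre, in which the Albumin promoter restricts Cre to hepatocytes, while Ctrl mice had no Cre. The Chow-fed hepatocyte cohort held 4 mice of each genotype. The other cohort, 4 Maf1hep-/- and 5 Ctrl mice, was fed a high fat (HF) diet with 60% of calories from lard from 4 to 5 weeks of age. No group with Cre and intact Maf1 was used here, so an effect of Cre cannot be told apart from that of the deletion.

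The libraries held 43564164 to 75682301 expected counts in the Chow-fed cohorts and 25544816 to 32319706 in the HF-fed cohort, and the carriers took 0.105% to 0.236% of them. Values per mouse are CPM, counts brought to a common library total after TMM scaling, which sets the libraries to a common level through genes of middling change. Maf1 itself did not overlap between genotypes in any cohort and was lower in the knockouts, at 0.0771 to 1.09 CPM in Maf1-/- mice against 4.93 to 10.8 CPM in their Ctrl. The hepatocyte markers were present (7 of 8 found in the table, their sum 64000 CPM or more in every library), while none of 5 skeletal muscle markers was in the table. Ctrl mouse 2 of the whole-body cohort stood apart: it was the lowest or the highest of its 7 Ctrl mice in 68.5% of the genes at 1 CPM or more, and in 27 of the 35 carriers, against 13.5% to 36.7% of the genes for the other 6. The whole-body calls are therefore given with and without this mouse. In whole liver, fewer cells of a type and less RNA per cell cannot be told apart.

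All 35 carriers reached 1 CPM in at least 1 library and so passed the filter on low counts, and 33 reached it in every library. Their levels per kb of the longest annotated transcript, a scale on which genes can be compared, were taken over the 11 Chow-fed Ctrl mice of both cohorts and spanned 853.8-fold. The 6 highest carriers made up 72.7% of the summed level. Slc25a5, an ADP/ATP carrier that exchanges the products and substrates of oxidative phosphorylation, stood highest at 240.0 ± 37.7 CPM per kb (SD, n = 11). It was followed by Slc25a39, which brings glutathione into mitochondria, at 149 ± 34.3 CPM per kb (SD, n = 11). Slc25a1, the citrate carrier that supplies cytosolic acetyl-CoA for fatty acid synthesis, came next at 66.87 ± 10.99 CPM per kb (SD, n = 11). Slc25a47, a carrier found mainly in liver, reached 53.6 ± 24.8 CPM per kb, the dicarboxylate carrier Slc25a10 reached 53.1 ± 17.1 CPM per kb and the phosphate carrier Slc25a3 reached 42.0 ± 5.03 CPM per kb.

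**Figure D1:**
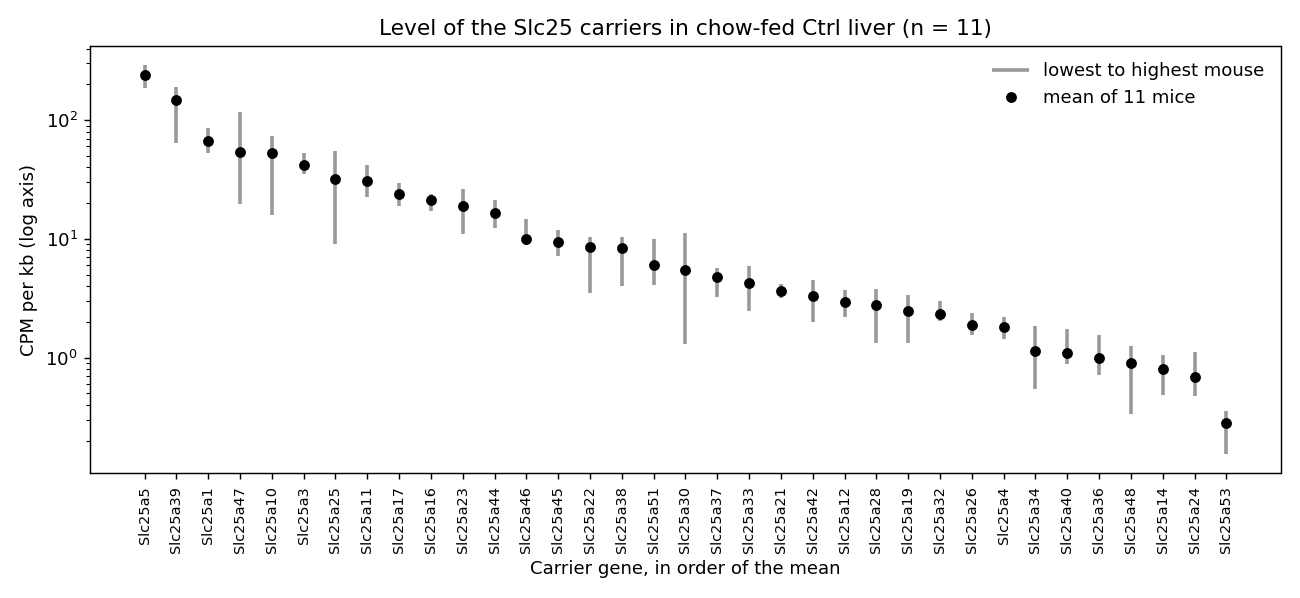
Level of each of the 35 carriers in Chow-fed Ctrl liver, in CPM per kb of the longest transcript on a log axis, with the mean of 11 mice as a point and the lowest to highest mouse as a line. Slc25a5 stood highest at 240.0 CPM per kb and Slc25a53 lowest at 0.281 CPM per kb, and the ranges of most neighbours in the order overlap.

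Most of the order is a gradient rather than a set of steps. In 33 of 34 neighbouring pairs the ranges over the 11 mice overlapped, and only Slc25a24 (0.476 to 1.12 CPM per kb) lay wholly above the gene after it, Slc25a53 (0.155 to 0.357 CPM per kb). The overlap of Slc25a39 with Slc25a1 rested on Ctrl mouse 2 of the whole-body cohort. That mouse had 63.9 CPM per kb of Slc25a39, below the highest Slc25a1 value of 85.9 CPM per kb. In every other Ctrl mouse Slc25a39 lay above that value. The 6 lowest carriers were Slc25a40 (1.09 CPM per kb), the pyrimidine nucleotide carrier Slc25a36 (0.990 CPM per kb), Slc25a48 (0.906 CPM per kb), Slc25a14 (0.797 CPM per kb), the ATP-magnesium and phosphate carrier Slc25a24 (0.694 CPM per kb) and Slc25a53 (0.281 CPM per kb). With the median annotated transcript in place of the longest, the order was close to the same (Spearman's rho of the ranks 0.944 over 35 genes that share the same libraries), although Slc25a39 then stood first at 327.4 CPM per kb and Slc25a5 next at 300.9 CPM per kb. The counts of Slc25a3 were not whole numbers in any Chow-fed library and those of Slc25a5 in 90% of them, as happens where reads are divided between loci, so their levels are less certain than that of Slc25a39, whose counts were all whole.

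The roles were led by carriers of very different levels. Among the amino acid carriers, Slc25a44, which imports branched-chain amino acids, led at 16.6 ± 2.68 CPM per kb, above the glutamate carrier Slc25a22 at 8.58 CPM per kb, the glycine carrier Slc25a38 at 8.36 CPM per kb and the aspartate-glutamate carrier Slc25a12 at 2.97 CPM per kb. This order held for the longest transcript only. Per kb of the median transcript, Slc25a22 stood at 64.54 CPM, Slc25a12 at 23.85, Slc25a38 at 21.96 and Slc25a44 lowest at 17.1. Of the mitoferrins, which bring iron into mitochondria for heme and iron-sulfur clusters, Slc25a37 (4.76 ± 0.739 CPM per kb) lay above Slc25a28 (2.78 ± 0.822 CPM per kb), with ranges that overlapped. Of the relatives of the uncoupling proteins, Slc25a30 (5.48 ± 3.21 CPM per kb) lay above Slc25a14 (0.797 ± 0.190 CPM per kb). The ADP/ATP carrier of muscle and heart, Slc25a4, was at 1.82 CPM per kb, far below Slc25a5.

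The carriers also differed in how much they varied between Ctrl mice. Slc25a30 had the highest coefficient of variation, 58.6% over the 11 mice, followed by the calcium-regulated ATP-magnesium and phosphate carrier Slc25a25 (46.5%), Slc25a47 (46.3%) and Slc25a48 (36.4%). The steadiest were Slc25a16 (8.64%), the oxodicarboxylate carrier Slc25a21 (9.50%), Slc25a3 (12.0%) and the folate and FAD carrier Slc25a32 (12.3%). These values pool both Chow-fed cohorts and include Ctrl mouse 2 of the whole-body cohort. Within the cohorts the coefficient of variation was 45.0% (whole-body) and 91.6% (floxed) for Slc25a30, 32.4% and 56.5% for Slc25a25, 33.7% and 54.6% for Slc25a47, and 26.5% and 41.5% for Slc25a48. For Slc25a16 it was 6.8% and 9.56%, and for Slc25a3 11.7% and 6.01%. For Slc25a30 the floxed Ctrl mice on chow had 40.6, 13.4, 4.69 and 10.9 CPM, so that 1 of the 4 was far above the rest.

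The first comparison asked how the carriers differ where Maf1 is missing in all cells. With all 12 mice, no carrier passed an adjusted p of 0.05 in edgeR's quasi-likelihood test, at which 3 of 12796 genes (0.0234%) were called. The carriers lay mostly lower in Maf1-/- liver: 25 of 35 had a log2(FC) below 0 with a median of -0.17, against a median of 0.003 over all genes. At an unadjusted p under 0.05 there were 12 carriers, 11 lower and 1 higher, a share of the family that can be set beside 26.3% of all genes. Both the Ctrl mouse that stood apart and the base composition of the genes moved with this comparison.

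Slc25a30, called kidney mitochondrial carrier protein and related to the uncoupling proteins, had the smallest p. Its level in the 5 Maf1-/- mice was 7.69, 7.48, 10.8, 4.82 and 7.52 CPM. In the 7 Ctrl mice the lowest was 11.7, the median 17.1 and the highest 39.4 CPM. Every Maf1-/- mouse lay below every Ctrl mouse, and Slc25a30 was the only carrier (2.86% of the 35) whose groups did not overlap, where 0.546% of all genes had groups that did not. The estimate was -1.41 (SE 0.28) on the log2 scale, with an unadjusted p of 0.000171 in the edgeR fit and an adjusted p of 0.152. Without Ctrl mouse 2 the log2(FC) was -1.51 with an adjusted p of 0.00384.

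Slc25a22, a glutamate carrier, stood at 31.5, 38.1, 21.8, 20.1 and 21.1 CPM in Maf1-/- mice. In Ctrl mice the lowest was 19.4, the median 52.5 and the highest 58.3 CPM. The lowest Ctrl value belonged to mouse 2, and the other 6 Ctrl mice, from 45.6 CPM upward, all lay above the Maf1-/- mice. The log2(FC) was -0.84 (SE 0.23, adjusted p = 0.152), and without Ctrl mouse 2 it was -0.97 with an adjusted p of 0.0035.

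Slc25a10, the dicarboxylate carrier that exchanges malate and succinate for phosphate, stood at 68.5, 69.0, 32.4, 30.4 and 65.6 CPM in Maf1-/- mice. The lowest Ctrl mouse was at 31.9 (mouse 2), the median at 105.3 and the highest at 147.4 CPM. The next Ctrl mouse was at 77.2 CPM, again above all Maf1-/- mice. Slc25a39 showed the same arrangement of mouse 2 among the Maf1-/- mice, which stood at 181.7, 172.6, 117.8, 122.3 and 147.2 CPM. Its Ctrl mice had a lowest value of 107.7 (mouse 2), a median of 231.2 and a highest of 291.1 CPM. The log2(FC) of Slc25a10 was -0.89 (SE 0.31) with all mice and -1.04 without mouse 2, and that of Slc25a39 -0.57 (SE 0.19) and -0.68.

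**Figure D2:**
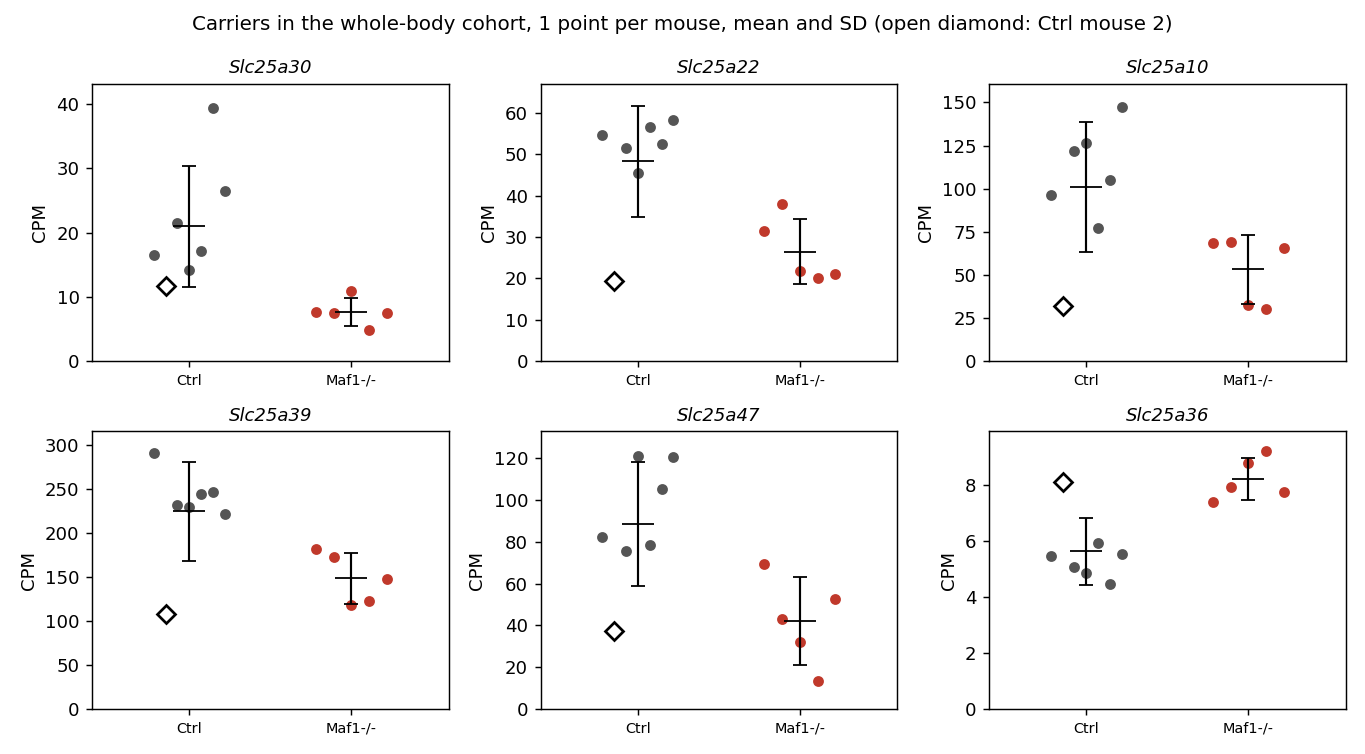
CPM of 6 carriers in the whole-body cohort, 1 point per mouse (7 Ctrl, 5 Maf1-/-), with the mean as a bar, the SD as an error bar and Ctrl mouse 2 as an open diamond. Only for Slc25a30 do all Maf1-/- mice (4.82 to 10.8 CPM) lie below all Ctrl mice (11.7 to 39.4 CPM), and in Slc25a22, Slc25a10 and Slc25a39 the lowest Ctrl point is mouse 2.

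Slc25a47 stood at 69.1, 43.2, 32.2, 13.3 and 52.8 CPM in Maf1-/- mice, while its Ctrl mice had a lowest value of 37.1, a median of 82.1 and a highest of 121.1 CPM. The groups overlapped through Ctrl mouse 2 at 37.1 CPM, and the log2(FC) was -1.04 (SE 0.34, adjusted p = 0.152). For the pyrimidine nucleotide carrier Slc25a33 the estimate was -0.51 (SE 0.16, adjusted p = 0.152), with Maf1-/- mice at 5.71, 6.22, 5.59, 5.69 and 7.83 CPM and Ctrl mice from 6.20 to 11.1 CPM with a median of 9.71. Its close relative Slc25a36 was the carrier that lay higher, at 7.38, 7.92, 8.78, 9.19 and 7.72 CPM in Maf1-/- mice against a lowest of 4.45, a median of 5.46 and a highest of 8.08 CPM in Ctrl mice, at a log2(FC) of 0.57 (SE 0.16, adjusted p = 0.152). The highest Ctrl value of Slc25a36 was again that of mouse 2.

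Without Ctrl mouse 2, 4509 of 12792 genes (35.2%) were called and 14 of the 35 carriers, 10 lower and 4 higher. The lower ones were Slc25a30, Slc25a47, Slc25a10, Slc25a22, Slc25a39, Slc25a33, Slc25a38, Slc25a23, Slc25a26 and Slc25a1, with log2(FC) from -1.51 to -0.32. The higher ones were Slc25a36 (0.70), the glutathione carrier relative Slc25a40 (0.61), Slc25a24 (0.53) and Slc25a46 (0.37). With 1 RUVr factor in a limma-voom fit of all 12 mice, the kind of correction the study applied, 33.6% of genes and 15 carriers were called, and with 3 factors 47.9% of genes and 17 carriers. The same 13 carriers were called without Ctrl mouse 2, with 1 factor and with 3 factors, 10 of them lower and 3 higher, in fits that share their mice. The share of all genes called in all 3 fits was not counted, so this overlap is not a result about the family. Both RUVr fits also called Slc25a32 (0.23 with 1 factor) and Slc25a42 (-0.41), and the fit with 3 factors added Slc25a28 (-0.38) and Slc25a5 (-0.22). With all 29 mice in 1 fit, 17.3% of genes and 8 carriers were called. With DESeq2, 2.45% of genes and 3 carriers were called (Slc25a22, Slc25a30 and Slc25a36).

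**Figure D3:**
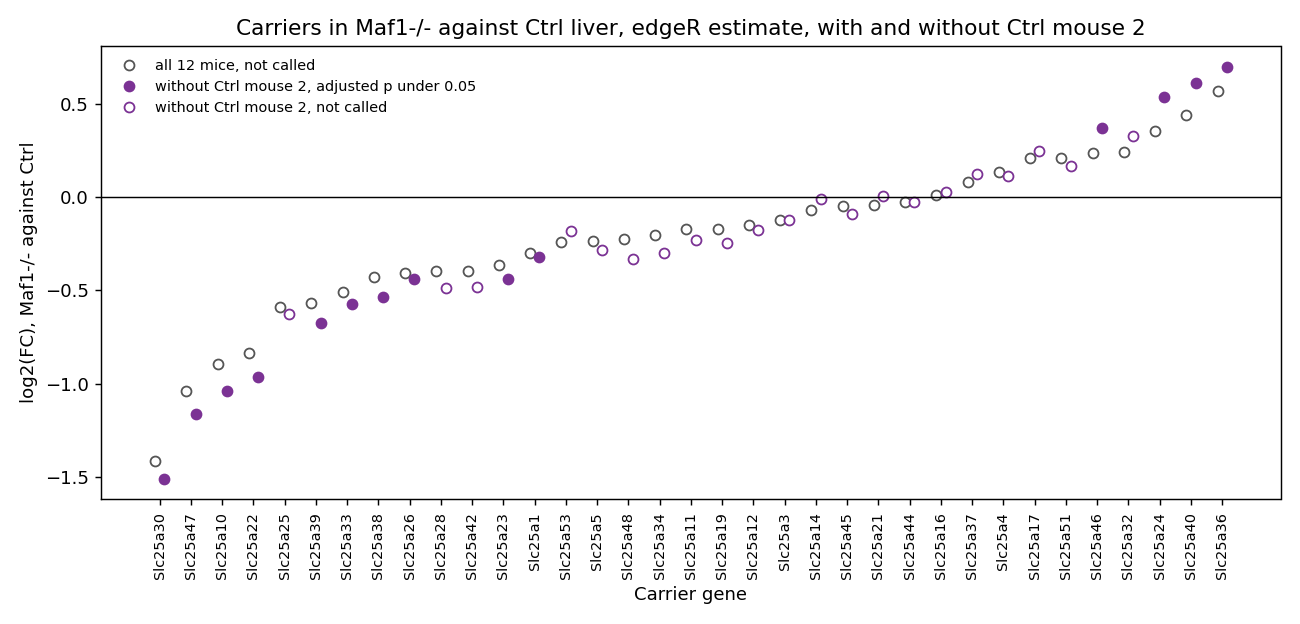
edgeR log2(FC) of the 35 carriers in Maf1-/- against Ctrl liver, in order of the estimate from all 12 mice (grey) with the estimate without Ctrl mouse 2 beside it (purple), filled where the adjusted p is under 0.05. No carrier is filled with all mice, and 14 are without the mouse, from Slc25a30 at -1.51 to Slc25a36 at 0.70.

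By role, all 4 carriers of di- and tricarboxylates and all 4 amino acid carriers had a log2(FC) below 0 with all mice, and none of the 8 was called. Of the 8 carriers of vitamins, cofactors, nucleotides and glutathione, 4 lay below and 4 above 0. The summed level of the family was 1365 ± 88.0 CPM (SD, n = 5) in Maf1-/- mice, from 1237 to 1457 CPM, against 1721 ± 209.6 CPM (SD, n = 7) in Ctrl mice. Ctrl mouse 2 had 1268 CPM and the other 6 Ctrl mice 1797 ± 69.7 CPM (SD, n = 6), from 1710 to 1876 CPM, so that this mouse lay within the range of the Maf1-/- mice and the others above it. The summed stellate cell markers had a higher mean in Maf1-/- liver with ranges that overlapped, at 456.9 to 654.4 CPM against 372.5 to 537.7 CPM in Ctrl liver. The list was mixed. Of 8 markers, 4 were higher at an unadjusted p under 0.05 and 0 were called, while Des (log2(FC) -0.33), Col1a1 (-0.23) and Pdgfrb (-0.18) had estimates below 0. No stellate marker was at 0 in every library, and their part in the carrier differences was not tested.

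Base composition moved with the direction. The 11 carriers that were lower at an unadjusted p under 0.05 had a median GC content of 56.4%, the 1 higher had 40.7%, and all 35 had 50.1% against 49.0% over all genes. With an offset for GC content and length in each library, 19 carriers lay lower and 16 higher in place of 25 and 10, and 0 carriers and 5 of 12787 genes (0.0391%) were called. The estimate of Slc25a39 then went from -0.57 to -0.03 and that of Slc25a1 from -0.30 to 0.14, while Slc25a30 went from -1.41 to -1.57. An offset of this kind also removes any true difference that runs with GC content, and which of these applies was not tested.

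The next comparisons asked whether deleting Maf1 in hepatocytes alone is accompanied by carrier differences. On chow, 0 carriers and 2 of 12570 genes (0.0159%) were called, and 1 carrier had an unadjusted p under 0.05, as did 2.34% of all genes. DESeq2 also called 0 carriers. That carrier was Slc25a28, mitoferrin-2, at 9.84, 11.5, 11.4 and 12.0 CPM in Maf1hep-/- against 13.2, 14.1, 13.4 and 11.8 CPM in Ctrl mice. The groups overlapped, and the log2(FC) was -0.23 (SE 0.10, adjusted p = 0.997). Slc25a16 (-0.13, SE 0.08), Slc25a47 (-0.53, SE 0.35), Slc25a38 (-0.18, SE 0.12) and the CoA carrier Slc25a42 (0.32, SE 0.22) had the next smallest p-values, all with an adjusted p of 0.997. Single mice moved these estimates. That of Slc25a47 was -0.07 without Ctrl mouse 1, at 222.9 CPM beside 103.9, 76.7 and 89.8 CPM. Without Ctrl mouse 3, Slc25a38 came to -0.10 and Slc25a16 to -0.08, and Slc25a42 came to 0.57 without Ctrl mouse 4 and to 0.19 without Maf1hep-/- mouse 2.

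On the HF diet, 0 carriers and 4 of 12378 genes (0.0323%) were called, and 2 carriers had an unadjusted p under 0.05, as did 5.99% of all genes. DESeq2 called 0 carriers and 56 genes (0.452%). Slc25a11, the oxoglutarate carrier of the malate-aspartate shuttle, stood at 46.4, 41.6, 43.7 and 36.6 CPM in Maf1hep-/- against 46.6, 54.9, 56.9, 54.8 and 42.1 CPM in Ctrl mice. Its groups overlapped through Ctrl mouse 5, and the log2(FC) was -0.29 (SE 0.11, adjusted p = 0.804). For Slc25a3 the estimate was -0.24 (SE 0.10, adjusted p = 0.810), for Slc25a33 -0.43 (SE 0.20, adjusted p = 0.841), for Slc25a10 0.48 (SE 0.23, adjusted p = 0.841) and for Slc25a30 -0.75 (SE 0.38, adjusted p = 0.847). Without Ctrl mouse 3 the estimate of Slc25a30 was -0.48. In a fit with the replicate number as a block, 51 genes (0.412%) and 0 carriers were called, and 8 carriers, all lower, and 13.3% of all genes had an unadjusted p under 0.05.

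The summed family level was close between genotypes in both hepatocyte cohorts, at 1753 ± 97.0 CPM (SD, n = 4) in Chow-fed Maf1hep-/- and 1819 ± 68.8 CPM (SD, n = 4) in their Ctrl, and at 1721 ± 92.2 CPM (SD, n = 4) and 1711 ± 167.8 CPM (SD, n = 5) on the HF diet, with ranges that overlapped. No carrier had groups that did not overlap in either cohort, where 1.47% and 1.70% of all genes did. On the HF diet the summed hepatocyte markers did not overlap between genotypes, at 80790 to 92200 CPM in Maf1hep-/- and 64420 to 77520 CPM in Ctrl mice, with 2 of 7 higher at an unadjusted p under 0.05 and 0 called. The summed erythroid markers ran from 58.1 to 151.3 CPM in Maf1hep-/- and from 54.9 to 95.2 CPM in Ctrl mice, with 2 of 5 higher at an unadjusted p under 0.05 and 0 called. No marker found of either list was at 0 in every library, and their part was not tested.

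Whether the whole-body effect differed from the hepatocyte effect on chow was tested as an interaction over 20 mice. With all mice 0 carriers and 0 of 12857 genes (0.0%) were called in edgeR, while 12.4% of genes and 5 carriers had an unadjusted p under 0.05, and DESeq2 called 2 genes (0.0156%) and 0 carriers. The carriers with the smallest p were Slc25a22 (difference of log2(FC) -1.02, SE 0.35), Slc25a36 (0.48, SE 0.21) and Slc25a23 (-0.61, SE 0.27), all at an adjusted p of 0.399. Without Ctrl mouse 2 of the whole-body cohort, 1078 genes (8.39%) and 4 carriers were called, 3 of them lower and 1 higher. The difference between the cohorts was thus past the threshold for a few carriers only when this mouse was left out.

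The diet comparison set HF-fed against Chow-fed livers within each genotype of the floxed line. Diet cannot be told apart here from cohort, sequencing run, read length, depth and the way counts were made. The study's methods give 150 sequencing cycles for the HF-fed libraries as a change from its earlier protocol. Every value of the HF-fed cohort was a whole number, against 69.8% to 74.8% in the Chow-fed libraries. In addition, 32 genes with a mean of at least 10 CPM in the Chow-fed livers were listed at 0 in all 9 HF-fed libraries, and the median of these had 97.5% of its exonic bases inside exons of another annotated gene. No carrier was among them, and the carriers were little exposed to such overlap. Of the 35, 23 shared no exonic base with another gene and the highest share was 14.9%, that of Slc25a33, against a median of 0.0% over all genes. Counts that were not whole were a separate matter. They made up 100% of the Chow-fed values of Slc25a33 and Slc25a26, 75% of Slc25a46, 70% of Slc25a10 and 60% of Slc25a12. Those of Slc25a1, Slc25a28, Slc25a30, Slc25a32, Slc25a39 and Slc25a44 were all whole. The part of this in the diet estimates was not tested.

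In floxed Ctrl mice 15 of 35 carriers were called, 7 higher and 8 lower on the HF diet, where 53.4% of all genes were called (25.2% higher and 28.2% lower). In Maf1hep-/- mice 15 were called, 8 higher and 7 lower, where 46.8% of all genes were (21.7% higher and 25.1% lower). The share of carriers called was below that of all genes in both genotypes, a difference that was not tested. Of the 15 in each genotype, 12 were called in both and all 12 in the same direction, which is 80.0% of each list. Over all genes, 5218 were called in both, 5217 of them in the same direction, which is 75.3% of the Ctrl and 86.0% of the Maf1hep-/- list. With DESeq2, 16 carriers were called in each genotype, where 55.1% and 49.1% of all genes were. The diets did not overlap in 11 carriers (31.4%) in Ctrl and in 17 (48.6%) in Maf1hep-/- mice, where 42.0% and 42.1% of all genes had no overlap. The higher ones among these 12 were Slc25a14, Slc25a26, Slc25a30, Slc25a32, Slc25a33 and Slc25a42, and the lower ones Slc25a1, Slc25a10, Slc25a12, Slc25a28, Slc25a39 and Slc25a44. The genotypes share no mice, but they share the cohorts and their processing. In Ctrl mice the summed macrophage markers moved with the diet, from 256.9 to 354.9 CPM in Chow-fed and from 401.0 to 589.2 CPM in HF-fed mice, with 7 of 12 called higher and 2 lower. In Maf1hep-/- mice the sums overlapped, at 278.9 to 382.2 CPM on chow and 360.2 to 719.7 CPM on the HF diet. There Clec4f, Cd5l, Vsig4, Adgre1, Lyz2 and Csf1r were called higher and C1qc lower, and the other macrophage markers were not called. No macrophage marker was at 0 in every library, and their part in the carrier differences was not tested.

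**Figure D4:**
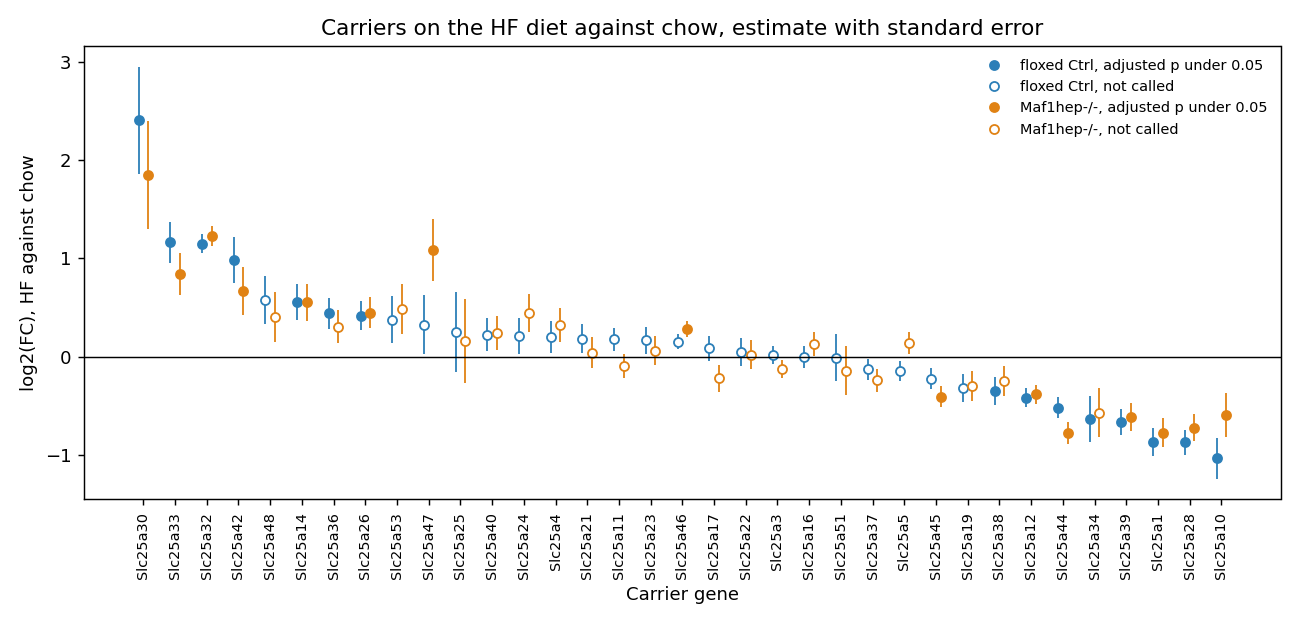
edgeR log2(FC) of the 35 carriers on the HF diet against chow, with the standard error as a line, in floxed Ctrl (blue) and Maf1hep-/- mice (orange), filled where the adjusted p is under 0.05. Slc25a30 has the highest estimate in both genotypes (2.41 and 1.85) and 15 carriers are filled in each.

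Among the carriers of vitamins and cofactors, Slc25a32 rose. This carrier brings folate and FAD into mitochondria. Its level was 16.0, 13.5, 12.4 and 12.98 CPM in Chow-fed Ctrl and 32.7, 27.2, 29.7, 26.5 and 35.6 CPM in HF-fed Ctrl mice. In Maf1hep-/- mice it was 14.1, 12.5, 14.3 and 13.2 CPM on chow and 33.5, 32.4, 30.6 and 29.7 CPM on the HF diet. The diets did not overlap in either genotype, and the log2(FC) was 1.15 (SE 0.10, adjusted p = 2.22e-08) in Ctrl and 1.23 (SE 0.10, adjusted p = 1.98e-08) in Maf1hep-/- mice. 

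Slc25a30 was the carrier with the largest estimate. On the HF diet it stood at 101.4, 51.9, 152.4, 112.3 and 40.3 CPM in Ctrl and at 53.2, 50.9, 72.0 and 45.0 CPM in Maf1hep-/- mice. On chow it stood at 40.6, 13.4, 4.69 and 10.9 CPM in Ctrl and at 21.9, 9.60, 12.5 and 17.4 CPM in Maf1hep-/- mice. The diets overlapped in Ctrl by 1 mouse of each and did not overlap in Maf1hep-/- mice. The log2(FC) was 2.41 (SE 0.55, adjusted p = 0.00187) and 1.85 (SE 0.55, adjusted p = 0.0132). The other relative of the uncoupling proteins, Slc25a14, also rose in both genotypes, by 0.56 (SE 0.18) and 0.55 (SE 0.19) on the log2 scale.

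Slc25a33, which carries pyrimidine nucleotides for mitochondrial DNA and RNA synthesis, stood at 6.47, 7.96, 4.64 and 5.86 CPM in Chow-fed and 16.1, 14.8, 17.9, 11.9 and 8.91 CPM in HF-fed Ctrl mice, without overlap. The log2(FC) was 1.16 (SE 0.21, adjusted p = 0.000177) in Ctrl and 0.84 (SE 0.22, adjusted p = 0.00448) in Maf1hep-/- mice. The CoA carrier Slc25a42 rose from 8.24, 9.21, 10.6 and 16.4 CPM to 25.9, 24.2, 23.1, 19.1 and 16.6 CPM in Ctrl mice, at a log2(FC) of 0.98 (SE 0.24, adjusted p = 0.00219). In Maf1hep-/- mice its diets overlapped and the log2(FC) was 0.67 (SE 0.24, adjusted p = 0.0328).

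The citrate carrier Slc25a1 fell, a call that ended in both genotypes with an offset for GC content and length. In Ctrl mice it stood at 91.9, 125.5, 143.1 and 135.3 CPM on chow and at 64.0, 78.2, 66.4, 74.7 and 54.6 CPM on the HF diet. In Maf1hep-/- mice the values were 109.3, 106.7, 139.3 and 126.7 CPM on chow and 62.2, 60.0, 73.5 and 85.3 CPM on the HF diet. The diets did not overlap in either genotype, at a log2(FC) of -0.87 (SE 0.14, adjusted p = 5.99e-05) and -0.78 (SE 0.15, adjusted p = 0.000424). The dicarboxylate carrier Slc25a10 fell as well, a call that ended with the offset in both genotypes and turned in sign in Maf1hep-/- mice, at a log2(FC) of -1.03 (SE 0.21) in Ctrl and -0.59 (SE 0.22) in Maf1hep-/- mice, while the other members of this class, Slc25a11 and Slc25a21, were not called in either genotype.

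**Figure D5:**
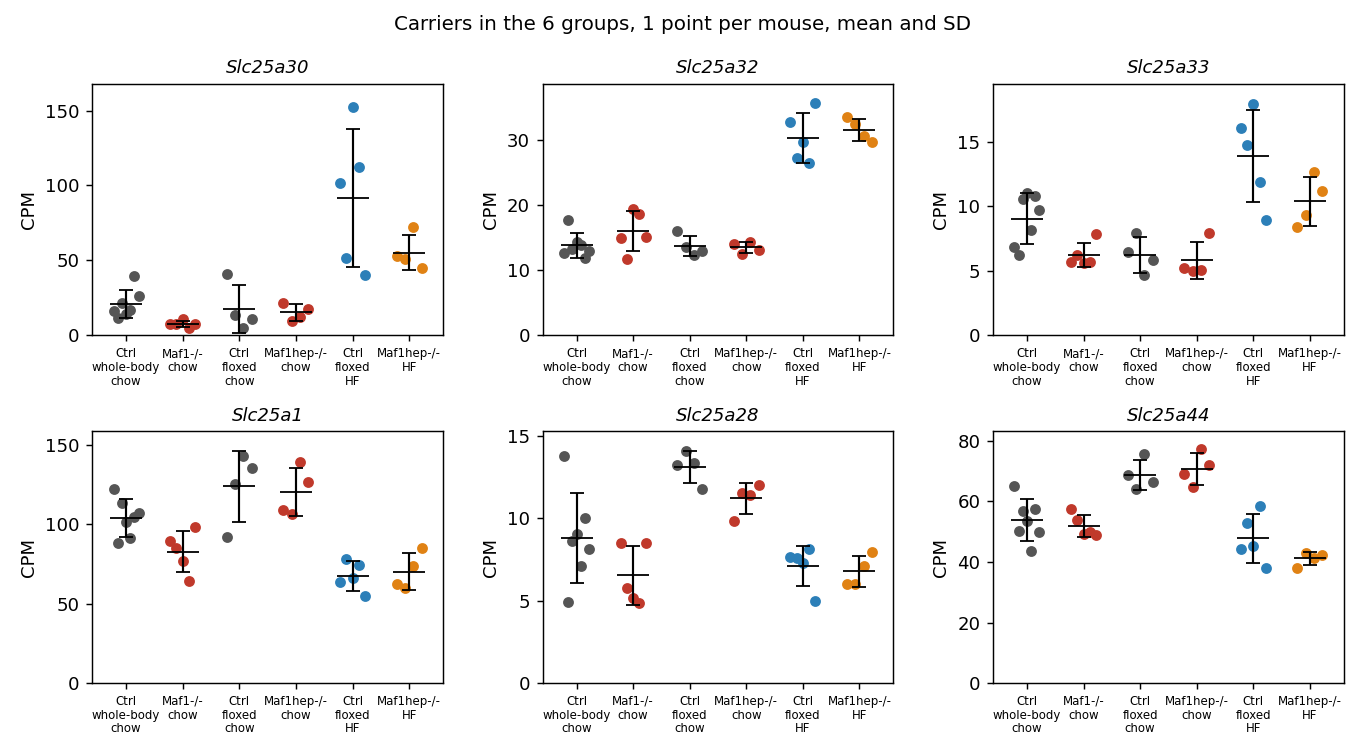
CPM of 6 carriers in the 6 groups, 1 point per mouse, with the mean as a bar and the SD as an error bar. In every HF-fed mouse Slc25a32 and Slc25a33 lie above all Chow-fed floxed mice, and Slc25a1, Slc25a28 and Slc25a44 below them. The Ctrl mice of the whole-body cohort overlap the HF-fed mice in Slc25a28, Slc25a33 and Slc25a44. In Slc25a30 the diets overlap in floxed Ctrl only.

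Of the amino acid carriers, Slc25a44 fell in both genotypes. It stood at 68.6, 64.2, 75.8 and 66.5 CPM on chow and at 44.4, 52.8, 45.1, 58.6 and 37.9 CPM on the HF diet in Ctrl mice, at a log2(FC) of -0.52 (SE 0.10, adjusted p = 0.00044). In Maf1hep-/- mice it stood at 69.0, 64.9, 77.2 and 72.0 CPM and at 38.2, 42.8, 41.3 and 42.4 CPM, at a log2(FC) of -0.78 (SE 0.11, adjusted p = 1.71e-05). Slc25a12 fell as well, at a log2(FC) of -0.42 (SE 0.09) in Ctrl and -0.38 (SE 0.10) in Maf1hep-/- mice, and Slc25a22 was not called in either genotype (0.05, SE 0.14 and 0.02, SE 0.15). Slc25a38 was called in Ctrl mice (-0.35, SE 0.15, adjusted p = 0.0498) and not in Maf1hep-/- mice (-0.24, SE 0.15).

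Of the mitoferrins, Slc25a28 fell from 13.2, 14.1, 13.4 and 11.8 CPM to 7.63, 7.56, 7.27, 8.12 and 4.99 CPM in Ctrl mice, without overlap, and the log2(FC) was -0.87 (SE 0.13, adjusted p = 2.22e-05) there and -0.72 (SE 0.14, adjusted p = 0.000375) in Maf1hep-/- mice. Slc25a37, the mitoferrin of red cell precursors, was not called (-0.13, SE 0.11 and -0.24, SE 0.11). The erythroid markers moved in the same direction as Slc25a28, with 4 of 5 called lower in each genotype and sums of 85.4 to 297.5 CPM in Chow-fed and 54.9 to 95.2 CPM in HF-fed Ctrl mice, and their part was not tested. With the TMM fit Slc25a39 fell, and with the GC and length offset its sign turned in both genotypes and it was called in neither. It went from 289.8, 295.5, 318.5 and 286.9 CPM to 168.1, 223.1, 200, 213.2 and 128.6 CPM in Ctrl mice, at a log2(FC) of -0.67 (SE 0.13) in Ctrl and -0.62 (SE 0.14) in Maf1hep-/- mice. Its relative Slc25a40 was not called.

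Of the 9 carriers of adenine nucleotides, phosphate and CoA, 1 was called in each genotype, Slc25a42. The 2 most abundant, Slc25a5 (-0.14, SE 0.10 in Ctrl and 0.14, SE 0.11 in Maf1hep-/- mice) and Slc25a3 (0.02, SE 0.09 and -0.13, SE 0.09), were not called. Slc25a47 stood at 222.9, 103.9, 76.7 and 89.8 CPM on chow and at 198.1, 173.5, 182.9, 105.9 and 106.9 CPM on the HF diet in Ctrl mice, with overlap and at a log2(FC) of 0.32 (SE 0.30). In Maf1hep-/- mice it rose from 81.0, 93.9, 62.0 and 106.1 CPM to 214.8, 137.4, 226.6 and 147.8 CPM, without overlap and at a log2(FC) of 1.09 (SE 0.32, adjusted p = 0.0112). Slc25a34, whose substrate is less settled, was called in Ctrl mice (-0.64, SE 0.23, adjusted p = 0.0289), a call that was lost with the GC and length offset and without Ctrl mouse 1 or 3 on chow or Ctrl mouse 5 on the HF diet (adjusted p = 0.053, 0.108 and 0.0648), and not in Maf1hep-/- mice (-0.57, SE 0.25, adjusted p = 0.0677).

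The Chow-fed Ctrl mice of the whole-body cohort, which entered no diet fit, show how far cohorts on the same diet lay apart. In them Slc25a28 ran from 4.95 to 13.7 CPM with a median of 8.63, which spans the values of the HF-fed mice. Slc25a44 ran from 43.8 to 65.1 CPM with a median of 53.5 and so overlapped the HF-fed more than the Chow-fed floxed Ctrl. Slc25a33 ran from 6.20 to 11.1 CPM and overlapped the HF-fed mice at 8.91 CPM and above. Slc25a1, at 88.5 to 122.4 CPM, lay above every HF-fed mouse, and Slc25a32, at 11.9 to 17.7 CPM, lay below every HF-fed mouse.

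None of these differences between genotypes in the response to diet passed its own test. In the interaction of diet and genotype over 17 mice, 0 carriers and 0 of 12970 genes (0.0%) were called in edgeR, with 4.5% of genes and 0 carriers at an unadjusted p under 0.05, and DESeq2 called 11 genes (0.0848%) and 0 carriers. The smallest p-values were those of Slc25a5 (difference of log2(FC) 0.28, SE 0.15), Slc25a47 (0.76, SE 0.43) and Slc25a44 (-0.26, SE 0.15), all at an adjusted p above 0.99. The estimate of Slc25a47 was 0.31 without Chow-fed Ctrl mouse 1, the one at 222.9 CPM.

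GC content also ran with the direction of the diet calls. In Ctrl mice the 8 lower carriers had a median GC content of 57.0% and the 7 higher 47.6%, and in Maf1hep-/- mice the 7 lower had 54.1% and the 8 higher 48.9%. With the GC and length offset 14 carriers were called in each genotype, beside 48.5% and 43.1% of all genes, 10 higher and 4 lower in Ctrl and 8 higher and 6 lower in Maf1hep-/- mice. Of the 15 calls in Ctrl mice 6 were then lost, those of Slc25a1 (-0.14, adjusted p = 0.241), Slc25a10 (-0.20, adjusted p = 0.373), Slc25a34 (-0.14, adjusted p = 0.616), Slc25a36 (0.12, adjusted p = 0.471), Slc25a38 (0.04, adjusted p = 0.840) and Slc25a39 (0.09, adjusted p = 0.345). Of the 15 calls in Maf1hep-/- mice 4 were lost, those of Slc25a1 (-0.21, adjusted p = 0.117), Slc25a10 (0.09, adjusted p = 0.716), Slc25a39 (0.02, adjusted p = 0.891) and Slc25a46 (0.05, adjusted p = 0.652). The sign turned for Slc25a38 and Slc25a39 in Ctrl and for Slc25a10 and Slc25a39 in Maf1hep-/- mice. Slc25a28 (-0.80 in Ctrl), Slc25a32 (0.80), Slc25a33 (1.37) and Slc25a42 (1.25) were called with the offset as without it. With library totals in place of TMM the median of all genes moved to 0.405 in Ctrl and 0.345 in Maf1hep-/- mice from 0.010 and 0.022. Then 70.6% and 64.0% of genes were called, with 22 carriers higher and 3 lower in Ctrl and 16 higher and 3 lower in Maf1hep-/- mice, so that the split between higher and lower carriers holds relative to the median gene only.

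The sequences just before the start of genes are shown for 3 carriers that rose and 3 that fell on the HF diet, picked after their values were seen, with the calls of Slc25a1 and Slc25a10 lost in both genotypes under the GC and length offset, so that carriers that moved together can be compared. RefSeq promoters on GRCm38.p6 matched 28 of the 35 carriers, and 250 bases before 1 start per gene were searched on both strands for 8 short motifs: the E-box CACGTG, the cAMP response element TGACGTCA, the CCAAT box CCAAT, the NRF1 site GCGCA, any base, GCGC, the sterol element TCACNCCAC, the GC box GGGCGG, the TATA box TATAAA and AGGTCA repeated after any 1 base. Capitals mark every match below, and no matches overlap. The carriers that rose on the HF diet were Slc25a30 at chr14:75787038-75787287, Slc25a33 at chr4:149774268-149774517 and Slc25a42 at chr8:70212282-70212531. Those that fell were Slc25a1 at chr16:17928220-17928469, Slc25a28 at chr19:43674882-43675131 and Slc25a10 at chr11:120491587-120491836. All lie on the minus strand but Slc25a10, and each is given 5′ to 3′ in the direction of its gene.
Slc25a30: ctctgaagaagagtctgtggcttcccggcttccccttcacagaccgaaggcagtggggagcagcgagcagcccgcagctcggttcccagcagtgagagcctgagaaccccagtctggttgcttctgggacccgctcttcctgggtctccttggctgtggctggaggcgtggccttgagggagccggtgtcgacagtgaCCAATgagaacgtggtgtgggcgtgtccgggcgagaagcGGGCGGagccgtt
Slc25a33: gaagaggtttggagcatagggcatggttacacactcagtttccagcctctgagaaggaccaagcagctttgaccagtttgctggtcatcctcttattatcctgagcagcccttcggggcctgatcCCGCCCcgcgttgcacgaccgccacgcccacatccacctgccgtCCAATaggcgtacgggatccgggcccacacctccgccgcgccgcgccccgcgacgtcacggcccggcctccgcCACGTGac
Slc25a42: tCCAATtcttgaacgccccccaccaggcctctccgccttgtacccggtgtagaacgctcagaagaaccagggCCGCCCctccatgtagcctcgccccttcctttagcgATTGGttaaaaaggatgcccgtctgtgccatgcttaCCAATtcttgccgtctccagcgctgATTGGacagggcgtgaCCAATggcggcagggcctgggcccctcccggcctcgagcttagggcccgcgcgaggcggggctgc
Slc25a1: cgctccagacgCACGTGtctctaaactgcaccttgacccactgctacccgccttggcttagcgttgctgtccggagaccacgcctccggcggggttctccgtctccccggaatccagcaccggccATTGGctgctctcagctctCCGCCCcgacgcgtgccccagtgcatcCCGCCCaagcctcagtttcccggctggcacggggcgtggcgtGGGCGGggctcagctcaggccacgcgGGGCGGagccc
Slc25a28: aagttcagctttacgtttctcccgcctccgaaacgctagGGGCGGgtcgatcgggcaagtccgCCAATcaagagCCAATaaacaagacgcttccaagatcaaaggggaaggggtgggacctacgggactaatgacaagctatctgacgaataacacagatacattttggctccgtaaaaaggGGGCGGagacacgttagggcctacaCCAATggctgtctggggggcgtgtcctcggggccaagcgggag
Slc25a10: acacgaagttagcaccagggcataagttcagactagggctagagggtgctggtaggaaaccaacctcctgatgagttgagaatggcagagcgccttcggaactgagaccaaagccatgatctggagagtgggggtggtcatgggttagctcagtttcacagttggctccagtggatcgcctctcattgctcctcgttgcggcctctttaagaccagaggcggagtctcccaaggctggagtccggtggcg

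The letters did not separate the carriers that rose from those that fell. CCAAT and GGGCGG stood before Slc25a30, Slc25a33 and Slc25a42, which rose, and before Slc25a1 and Slc25a28, which fell. The E-box stood before Slc25a33, which rose, and before Slc25a1, which fell. None of the 8 motifs was in the window of Slc25a10. Over the 28 carriers, GGGCGG was present in 71.4% against 32.9% of 27025 promoters, CCAAT in 14 of 28 against 34.5%, and CACGTG in 14.3% against 6.05%. TATAAA was present in 0 of 28 carriers and in 3504 of 27025 promoters. The carrier windows had a median GC content of 59.2% against 52.0% over all promoters. The 27025 promoters also cover genes outside the liver table. Their start was the first listed for each gene, while that of a carrier was the start nearest its annotated 5′ end. A match is a stretch of letters and not a measured binding site.

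Genes with neighbouring roles were compared through lists. Of 3 family relatives under other names found in the table, Ucp2, Mtch1 and Mtch2, none was called in any genotype comparison. In Ctrl mice on the HF diet 1 was called higher and 1 lower, and in Maf1hep-/- mice 0 were called. The diet counts of these lists stand beside 25.2% of all genes called higher and 28.2% lower in Ctrl mice. In Maf1hep-/- mice the shares of all genes were 21.7% and 25.1%. Whether any list differed from these shares was not tested. Of 14 genes for the import of carriers into mitochondria, 2 were called higher and 8 lower on the HF diet in Ctrl mice, and 1 higher and 5 lower in Maf1hep-/- mice. These counts hold Tomm6, a subunit of the outer membrane translocase, which was at 31.9 to 37.4 CPM in Chow-fed Ctrl and at 0.0 to 0.0306 CPM in HF-fed Ctrl livers, in the manner of the genes listed at 0. Of 22 other mitochondrial transport proteins, 4 were called higher and 9 lower in Ctrl and 2 higher and 5 lower in Maf1hep-/- mice. Among them was the pyruvate carrier subunit Mpc1, at 145.2 to 176.5 CPM on chow and 11.9 to 15.2 CPM on the HF diet in Ctrl mice. Abcb6 had a log2(FC) of -5.46 in Ctrl and -5.67 in Maf1hep-/- mice. For both genes, diet cannot be told apart from the way counts were made. Of 10 genes of mitochondrial content, 2 were called higher and 4 lower in Ctrl and 1 higher and 4 lower in Maf1hep-/- mice. In none of the genotype comparisons was a gene of these lists called.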

How the data were processed

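Liver RNA of 29 mice was measured by sequencing. According to the study's methods, the authors trimmed reads with TrimGalore, aligned them to mm10 with STAR, estimated expected counts per gene with RSEM and analysed each cohort on its own with TMM, voom and RUVr, whose number of factors is not given in the sources used here. The deposited table holds these expected counts for 12992 genes, unnormalized, and they were rounded to whole numbers. Each fit took the genes that reached 1 CPM in 1 or more of its libraries, tested with edgeR 4.0.16 (R 4.3.3) by the quasi-likelihood test with TMM, and p-values were adjusted over all genes by the Benjamini-Hochberg method. A gene was called at an adjusted p under 0.05. Each cohort was fitted alone for genotype, and the 17 floxed livers together for diet. SE is the estimate divided by the square root of F. limma 3.58.1 and DESeq2 1.42.0 served as alternatives, beside other scalings, filters, RUVr factors, an offset for GC content and length, a replicate block, and each mouse left out. The fits were tested on simulated data. Values are given for the 5 carriers of smallest p in each genotype comparison and the 3 of each interaction, the 8 of largest called estimate without overlap in each diet comparison, the 6 highest and 6 lowest levels, the highest of each role, the 4 highest and 4 lowest coefficients of variation, and carriers called in an alternative genotype fit. The genes and lists were chosen with earlier results of these data known. In the HF-fed cohort, mice with the same number in each genotype deviated together (correlations 0.367, 0.102, 0.231 and 0.246), a pairing seen in the values only and not stated by the labels. The replicates are separate mice per the labels.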

Additional observations from a re-analysis of the deposited data

Results flagged for a closer look

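In 14 of 210 sets of 4 to 7 mice, 1 mouse lay far from the rest in a carrier, where chance alone gives about 1 in 20. Ctrl mouse 2 of the whole-body cohort accounted for 8 of them. It was lowest in Slc25a39 (107.7 CPM, next 221.6), Slc25a22 (19.4 CPM, next 45.6) and Slc25a38 (7.18 CPM, next 14.4). It was highest in Slc25a32 (17.7 CPM, next 14.3), Slc25a46 (63.9 CPM, next 42.3), Slc25a36 (8.08 CPM, next 5.91), Slc25a24 (3.83 CPM, next 2.39) and Slc25a40 (7.78 CPM, next 4.72). Ctrl mouse 1 of that cohort was lowest in Slc25a53 (0.634 CPM, next 1.18), and Maf1-/- mouse 5 was highest in Slc25a33 (7.83 CPM, next 6.22). Maf1hep-/- mouse 4 on chow was highest in Slc25a33 (7.97 CPM, next 5.19). On the HF diet, Ctrl mouse 5 was lowest in Slc25a5 (218.7 CPM, next 253.1) and in Slc25a28 (4.99 CPM, next 7.27), and Maf1hep-/- mouse 4 was lowest in Slc25a37 (16.7 CPM, next 21.6).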

How the results depend on the processing

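The whole-body comparison depended on the setting: 0 carriers were called in the edgeR fit, 3 with DESeq2 (314 genes), 15 with 1 RUVr factor in limma (4299 genes) or edgeR (4296 genes), 17 with 3 factors (6130 genes), 8 with all 29 mice in 1 fit (2246 genes), and 0 to 14 with each mouse left out, the 14 (4509 genes) without Ctrl mouse 2. The whole-body against hepatocyte difference gave 0 to 4 carriers with each mouse left out, the 4 (1078 genes) again without that mouse. In the HF-fed genotype comparison 0 carriers were called in any setting run, while the count of genes went from 4 to 56 with DESeq2, 51 with the replicate block and 175 with 3 RUVr factors. For diet in Ctrl mice, library totals gave 25 carriers in place of 15, where 70.6% of all genes were called in place of 53.4%. Leaving out each mouse gave 12 to 16 carriers in Ctrl, against 11 to 16 in Maf1hep-/- mice. For the fits with a mouse left out or thinned counts, the share of all genes called for diet is not given here. Slc25a39 turned from lower to 0.0949 in Ctrl and 0.0167 in Maf1hep-/- mice with the GC and length offset, and to 0.132 and 0.0156 with the replicate block added. The cause was not tested. In the Chow-fed cohorts only the mice numbered 1 deviated together (correlations 0.327 in the whole-body and 0.246 in the hepatocyte cohort), and the other numbers had negative correlations. The replicate block called 1 gene in the whole-body and 2 in the hepatocyte cohort, with 0 carriers. For diet the block called 13 carriers in Ctrl and 15 in Maf1hep-/- mice, where 49.0% and 47.6% of all genes were called. Depth was lower in the HF-fed cohort, and counts thinned to the smallest library gave 13 and 15 carriers.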
